A study of Mus musculus with 30 samples.

Results

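The histone cluster genes described here are the 68 gene symbols in the deposited count files that begin with Hist, a digit or digits and the letter h, out of 22609 counted genes. They comprise 6 linker histone genes (H1), 18 H2A, 19 H2B, 12 H3 and 13 H4 genes. In the GENCODE M21 annotation of the mouse genome (GRCm38) 54 lie on chromosome 13, 10 on chromosome 3, 3 on chromosome 11 and 1 on chromosome 6. RNA was sequenced from hindpaw and dorsal root ganglia (DRG, the clusters of sensory neurons beside the spinal cord) of C57BL/6J mice aged 10 to 12 weeks, with 3 libraries in each of 10 groups and 50-nt single-end reads. In each tissue the groups were female PRL_Sh, female PRL, female Veh, male PRL and male Veh, where PRL is prolactin injected into the paw at 1 µg and Veh is its PBS vehicle. Injections were given once or daily for 12 days according to the protocol, and which of these a library had is not labelled. No genetic change is labelled in any group. The labels give 18 female and 12 male libraries whereas the series text counts 18 males and 12 females, and the labels were used. Xist, transcribed from the inactive X chromosome, was at 231.1 to 3787.2 CPM (reads per 1000000 gene reads) in the libraries labelled female and 0.334 to 6.33 CPM in those labelled male, and the Y-linked Ddx3y at 0 to 0.164 CPM in the libraries labelled female and 81.9 to 162.8 CPM in those labelled male. The PRL_Sh libraries were labelled mRNA and the other 24 libraries rRNA-depleted, so in every comparison of PRL_Sh with PRL the mRNA kit and the Sh label, whose meaning the labels do not give, cannot be told apart. The labels do not say whether the 3 libraries of a group came from separate mice, so all p-values measure the spread between libraries.

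Replication-dependent histone genes supply the H1, H2A, H2B, H3 and H4 proteins that package newly copied DNA, and are known to be transcribed mainly in S phase. Most of their mRNAs end in a conserved stem-loop, bound by the stem-loop binding protein SLBP and cut with the help of the U7 small nuclear RNA, in place of a poly(A) tail. Some members of the clusters are also known to give longer, polyadenylated transcripts, chiefly in cells that have stopped dividing. An mRNA kit selects poly(A) tails, whereas rRNA depletion keeps RNAs with and without one.

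The stem-loop was searched for in the GENCODE M21 transcripts on the sense strand as a run of 16 bases that starts with GG and ends with CC, with its first 6 bases able to pair with its last 6 (G-T pairs allowed). Its middle bases, from the sixth on, had to be T, T, any base, T, any base and A. It was found in an annotated transcript of 46 of the 68 members, and in 101 of 58725 protein-coding transcripts of other genes (0.172%). Some members without one have transcripts shorter than their RefSeq entry. Hist1h2ak has 393 bases against a span of 536, and Hist1h4k 312 against 409. A stem-loop past such an annotated end could not be found, so the other members are not shown to lack it. The commonest form, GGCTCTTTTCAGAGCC, was in 26 members, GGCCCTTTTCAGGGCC in 7 and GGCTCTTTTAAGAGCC in 6. The 6 sites below, with the stem-loop in capitals, are shown because members with the same element gave very different read counts in the PRL_Sh libraries.
Hist1h1c: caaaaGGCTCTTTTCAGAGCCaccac
Hist3h2a: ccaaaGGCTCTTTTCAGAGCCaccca
Hist1h3b: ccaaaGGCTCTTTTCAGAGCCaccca
Hist1h4i: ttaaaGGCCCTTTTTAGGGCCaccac
Hist2h4: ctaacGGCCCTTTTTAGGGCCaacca
Hist1h4d: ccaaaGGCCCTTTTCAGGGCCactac
On GRCm38 the stem-loop of Hist1h1c is at chr13:23739512-23739527 (plus strand), that of Hist3h2a at chr11:58955172-58955187 (plus) and that of Hist1h3b at chr13:23752820-23752835 (plus). Those of Hist1h4i and Hist2h4 are at chr13:22040966-22040981 (minus) and chr3:96262939-96262954 (minus), and that of Hist1h4d is at chr13:23581950-23581965 (plus). The deposited counts were made on mm9, and no coordinate of that build is given here.

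Reads counted in genes numbered 21795035 to 23232338 in paw PRL_Sh libraries and 21960972 to 26515208 in DRG PRL_Sh libraries. The rRNA-depleted libraries held 6866545 to 13470783 in paw and 8986530 to 13327072 in DRG. Male paw Veh library 2 stood apart, with 6866545 gene reads, 13.6% of its read records in genes (22.3% to 26.2% in the other rRNA-depleted paw libraries) and 55.5% aligning to more than 1 place (41.5% to 44.8% in the others). Levels are given as CPM, a gene's reads per 1000000 reads counted in genes of that library. Sensory neuron genes summed to 4621.9 to 6109.0 CPM in rRNA-depleted DRG against 17.1 to 36.7 CPM in rRNA-depleted paw, and keratinocyte and hair follicle genes to 24611.9 to 48754.1 CPM in rRNA-depleted paw against 26.3 to 91.9 CPM in rRNA-depleted DRG. Of the 68 members 61 had a read in at least 1 of the 30 libraries. The 7 without any were Hist1h2ao, Hist1h2ap, Hist1h2bq, Hist1h2br, Hist1h4m, Hist2h2aa1 and Hist2h2aa2. In these 7 a median of 6.5% of the 50-base windows of the annotated transcripts were found at no other gene locus, and at most 11.3%. Between 31.7% and 55.5% of a library's read records were set aside as aligning to more than 1 place, so a 0 for these 7 does not show that they were not expressed. Hist1h3h, with 6.1% of its windows found at no other locus, still had 74 reads in paw PRL. Why the 7 had no read was not tested. Another 8 members had under 20% of such windows, and their counts are partial.

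Summed over all members, the histone cluster genes stood at 344.8 ± 18.5 CPM in female paw PRL_Sh libraries and at 1665.3 ± 221.7 CPM in female paw PRL libraries (SD, n = 3 each). In DRG they stood at 158.9 ± 8.32 CPM in female PRL_Sh libraries and 498.9 ± 100.2 CPM in female PRL libraries (SD, n = 3 each). The sum was thus 4.83-fold lower in PRL_Sh than in PRL in paw and 3.13-fold lower in DRG, and the groups did not overlap in either tissue. Among the rRNA-depleted groups the sum was 1304.9 ± 58.7 CPM in female Veh, 1212.6 ± 142.8 CPM in male PRL and 1321.4 ± 143.4 CPM in male Veh paw libraries (SD, n = 3 each). In DRG it was 400.9 ± 38.5 CPM in female Veh, 432.1 ± 61.7 CPM in male PRL and 344.1 ± 47.2 CPM in male Veh libraries (SD, n = 3 each). A sum over members is a description, and no test was made on it.

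By reads in the 12 rRNA-depleted libraries of each tissue, with no correction for length, Hist1h1c led in both. It had a lowest, median and highest level of 170.8, 212.4 and 253.4 CPM in paw, against 62.7, 77.9 and 91.0 CPM in DRG. In paw it was followed by Hist1h1e (mean 144.3 CPM), Hist1h4d (100.8), Hist2h2bb (77.5), Hist1h1b (75.1), Hist1h1d (72.6), Hist1h2bc (52.3), Hist2h4 (45.5), Hist1h4h (43.7) and Hist1h4c (40.5). In DRG the order was Hist1h4d (mean 34.4 CPM), Hist1h2bc (32.0), Hist3h2a (30.1), Hist1h1e, Hist1h4h (17.5), Hist1h4c (16.6), Hist2h2bb (15.6), Hist2h4 (14.4) and Hist1h1d (14.3). Both tissues thus shared 9 of their 10 leading members, Hist1h1b in paw and Hist3h2a in DRG being the exceptions.

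**Figure D1:**
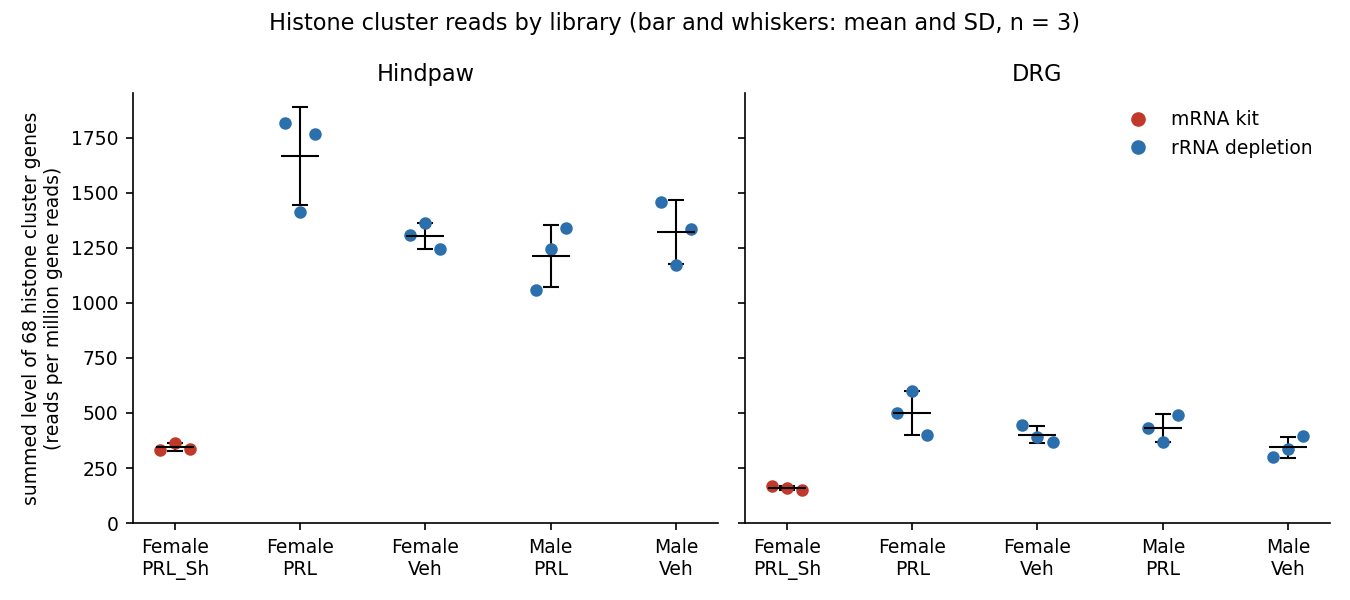
Summed level of the 68 histone cluster genes (CPM, vertical axis) in each of the 30 libraries, by group, in hindpaw (left) and DRG (right). Points are libraries, the horizontal bar and whiskers the mean and SD of 3 libraries. The PRL_Sh libraries sit at 332.4 to 366.0 CPM in paw and 150.7 to 167.3 CPM in DRG, below every rRNA-depleted library of the same tissue.

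In sums the drop fell unevenly over the histone classes, and single members carried much of what was left in PRL_Sh. H4 genes, which encode a core histone, summed to 8.08 CPM in PRL_Sh against 372.9 CPM in PRL in female paw, and to 1.45 CPM in PRL_Sh against 120.1 CPM in PRL in female DRG. H1 genes, which encode the linker histones, summed to 206.4 CPM in PRL_Sh against 682.2 CPM in PRL in paw, and to 65.0 CPM in PRL_Sh against 160.7 CPM in PRL in DRG. Hist1h1c made up nearly all of the H1 sum in PRL_Sh, at a mean of 202.8 CPM in paw and 61.8 CPM in DRG. Its mean in PRL was 239.8 CPM in paw and 84.0 CPM in DRG, so the other H1 genes together dropped steeply. In paw PRL_Sh against paw PRL, H2A genes summed to 25.6 against 144.7 CPM, H2B to 94.6 against 333.8 and H3 to 10.1 against 131.7. Hist1h1c alone held 58.8% of all member reads in paw PRL_Sh and 38.9% in DRG PRL_Sh, against 14.4% in paw PRL and 16.8% in DRG PRL.

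Most members dropped to a few reads or none in PRL_Sh. At least 10 reads in each of the 3 PRL_Sh libraries were found for 11 members in paw and 11 in DRG, against 54 members in paw PRL and 44 in DRG PRL, although the PRL_Sh libraries were deeper. Those members held 98.5% of the member reads of paw PRL_Sh and 97.7% of those of DRG PRL_Sh. In paw PRL_Sh 14 members had no read, 5 of which had reads in PRL, and in DRG PRL_Sh 28 had none, 19 of which had reads in PRL. A count of 0 over the 3 libraries allows up to 0.0447 CPM in paw and 0.0411 CPM in DRG, by counting error alone.

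Of the 56 members tested in paw, 3 were higher and 49 lower in PRL_Sh than in PRL by edgeR's quasi-likelihood test at an adjusted p under 0.05. Of all genes tested in that comparison 58.5% passed, 29.4% higher and 29% lower. Of the 47 members tested in DRG, none was higher and 43 were lower by the same test, where 61.6% of all genes passed, 29.3% higher and 32.3% lower. The members' median log2 change was -7.36 in paw and -7.18 in DRG, beside 0.05 in paw and 0.00 in DRG over all genes tested. The filter on low counts left 12 members untested in paw and 21 in DRG, and a member with reads only in PRL passed it through PRL. Over the 59 members with reads in PRL in each tissue, taken from reads pooled over libraries and with those unread in PRL_Sh set at 3 reads, the median log2 ratio was -7.34 in paw and -5.73 in DRG. With libraries scaled by gene reads only, all genes in DRG shifted by 0.22 (log2) and split into 6466 higher and 3642 lower rather than 4392 higher and 4843 lower, while the members stayed at 0 higher and 43 lower.

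The lost members include some with the most reads in PRL. Hist2h2bb, an H2B gene, had 0.0861, 0.0459 and 0.0905 CPM in paw PRL_Sh libraries against 78.7, 77.0 and 101.2 CPM in paw PRL libraries. It had no read in any DRG PRL_Sh library against 18.2, 23.7 and 17.1 CPM in DRG PRL libraries, which makes it at least 484.2-fold lower there. Every PRL library was thus above every PRL_Sh library in both tissues. Hist1h4d, an H4 gene, had 0.172, 0.0459 and 0.181 CPM in paw PRL_Sh against 157.7, 85.9 and 116.4 CPM in paw PRL (log2 change -9.73 ± 0.39 SE, adjusted p = 2.62e-05, edgeR). In DRG its counts came to 0.123, 0.0455 and 0 CPM in PRL_Sh against 41.9, 44.1 and 31.4 CPM in PRL (log2 change -9.52 ± 0.35 SE, adjusted p = 5.87e-07, edgeR). Hist1h3b, an H3 gene, had 1 read in all paw PRL_Sh libraries together against 528 in paw PRL, and 0 in DRG PRL_Sh against 143 in DRG PRL. Over the members unread in PRL_Sh, the fold decrease was at least 1.42 to 413.3 for the 5 in paw and at least 9.65 to 484.2 for the 19 in DRG, where the lower ends are members with few reads in PRL.

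The linker histone genes parted from one another. Hist1h1b, known for expression in dividing cells, was nearly absent from PRL_Sh, with 0.172, 0.138 and 0.226 CPM in paw PRL_Sh against 94.3, 91.0 and 122.0 CPM in paw PRL. Its log2 change was -9.12 ± 0.24 (SE) in paw and -6.90 ± 0.47 (SE) in DRG. Hist1h1d had 0.689, 0.826 and 0.317 CPM in paw PRL_Sh against 96.7, 92.0 and 107.8 CPM in paw PRL, and 0.695, 1.18 and 0.792 CPM in DRG PRL_Sh against 18.2, 24.5 and 13.5 CPM in DRG PRL. Hist1h1e had 2.37, 1.70 and 3.84 CPM in paw PRL_Sh against 228.0, 147.4 and 199.3 CPM in paw PRL, and 1.84, 2.05 and 2.23 CPM in DRG PRL_Sh against 30.6, 34.7 and 26.4 CPM in DRG PRL. Both were low in all PRL_Sh libraries, and their PRL_Sh levels overlapped between the tissues. Hist1h1c had between 196.7 and 211.7 CPM in the 3 paw PRL_Sh libraries against 250.3, 215.7 and 253.4 CPM in paw PRL, a difference that did not pass (log2 change -0.26 ± 0.11 SE, adjusted p = 0.083, edgeR). In DRG it had 62.4, 63.5 and 59.4 CPM in PRL_Sh against 82.3, 87.6 and 82.2 CPM in PRL and was lower (log2 change -0.67 ± 0.06 SE, adjusted p = 4.58e-05, edgeR).

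Members still read in PRL_Sh at 10 reads or more in every library of both tissues were 9: Hist1h1c, Hist1h1e, Hist1h2bc, Hist1h2be, Hist1h4i, Hist2h2be, Hist2h3c1, Hist2h3c2-ps and Hist3h2a. Hist1h2ac and Hist1h4h reached that count in paw only, and Hist1h1d and Hist3h2ba in DRG only. Just outside it, Hist1h1d had 16, 18 and 7 reads in paw PRL_Sh and Hist1h4h had 26, 15 and 9 reads in DRG PRL_Sh. At 10 reads a member can still be far below its PRL level. Among the 9, Hist1h1e was 73.2-fold lower in paw PRL_Sh and 15.1-fold lower in DRG PRL_Sh than in PRL, and Hist1h2be 5.28-fold lower in paw. Hist1h2ac, an H2A gene, had 2.8, 2.8 and 2.17 CPM in paw PRL_Sh against 10.2, 8.08 and 9.99 CPM in paw PRL, 3.65-fold lower (log2 change -1.87 ± 0.19 SE, adjusted p = 0.000289, edgeR). Hist1h4h, an H4 gene, had 5.17, 2.84 and 7.15 CPM in paw PRL_Sh against 54.7, 38.5 and 55.3 CPM in paw PRL, 9.83-fold lower (log2 change -3.30 ± 0.33 SE, adjusted p = 0.000264, edgeR).

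Pooled over libraries, 8 members in each tissue had a PRL_Sh level above 0.5 of their PRL level in CPM, and 7 of them were the same in both: Hist1h1c, Hist1h2bc, Hist2h2be, Hist2h3c1, Hist2h3c2-ps, Hist3h2a and Hist3h2ba. Hist1h4i was the eighth in paw and Hist1h2be in DRG. The place of Hist3h2ba in paw rests on few reads, as described with its levels. Hist1h2bc, an H2B gene, had 75.1, 86.7 and 61.7 CPM in paw PRL_Sh against 67.6, 55.9 and 59.4 CPM in paw PRL, with overlapping groups and a log2 change of 0.27 ± 0.13 (SE, adjusted p = 0.118, edgeR). In DRG it had 43.3, 35.9 and 35.2 CPM in PRL_Sh against 36.5, 37.4 and 34.2 CPM in PRL, and the log2 change of -0.15 ± 0.09 (SE, adjusted p = 0.181, edgeR) turned to 0.08 when libraries were scaled by gene reads only. Hist3h2a, an H2A gene, was lower in both tissues, with 19.3, 26.2 and 22.5 CPM in paw PRL_Sh against 35.1, 33.6 and 32.0 CPM in paw PRL (log2 change -0.58 ± 0.13 SE, adjusted p = 0.00738, edgeR). In DRG it had 26.6, 24.0 and 24.3 CPM in PRL_Sh against 30.7, 33.3 and 30.2 CPM in PRL (log2 change -0.56 ± 0.07 SE, adjusted p = 0.000316, edgeR).

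**Figure D2:**
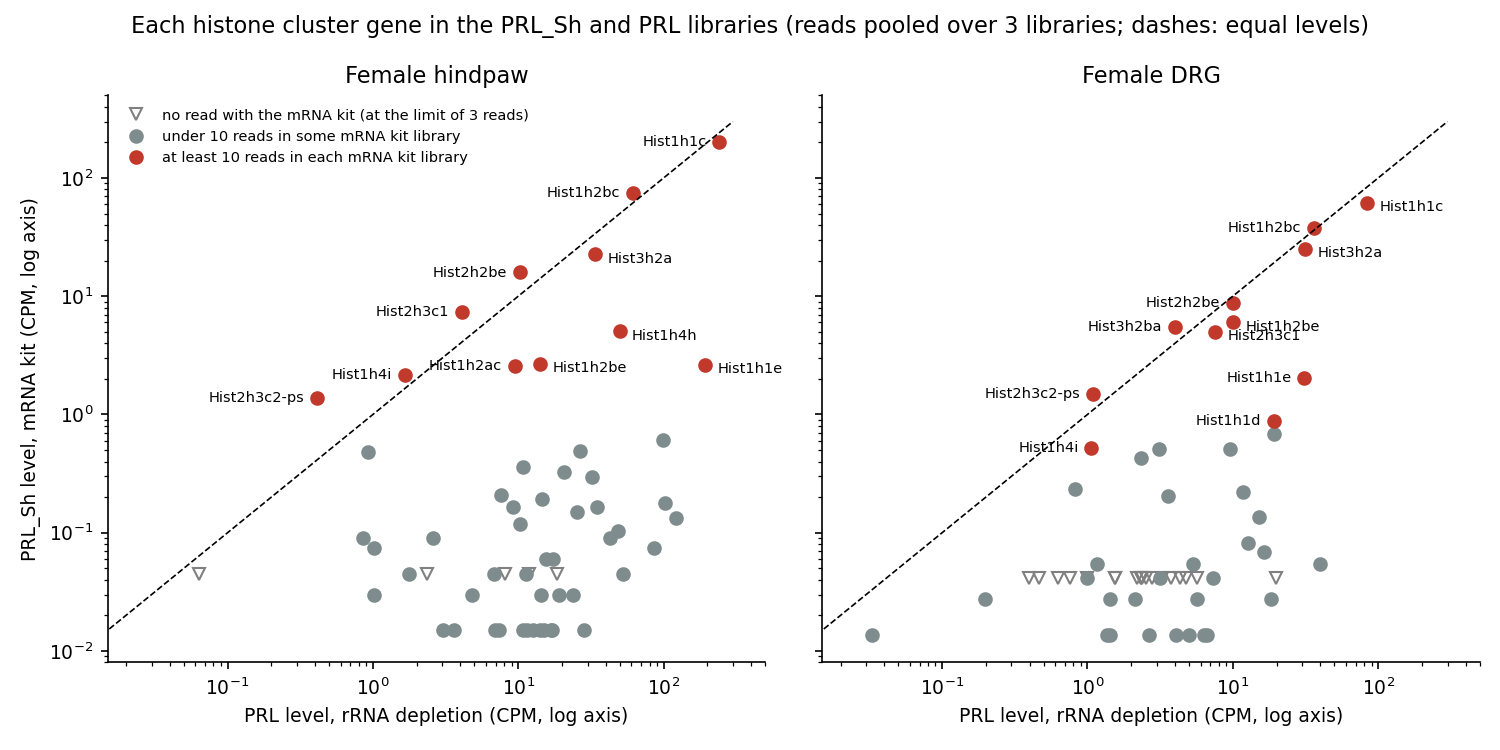
Level of each histone cluster gene in PRL_Sh libraries (vertical) against PRL libraries (horizontal), both in CPM on log axes, with reads pooled over 3 libraries, in female hindpaw (left) and female DRG (right). Red points had at least 10 reads in each PRL_Sh library, open triangles had no read there and are drawn at the limit of 3 reads, and the dashed line marks equal levels. Hist1h1c, Hist1h2bc and Hist3h2a lie close to the line in both tissues, while Hist1h1e lies 73.2-fold below it in paw and 15.1-fold below it in DRG.

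Hist2h2be, Hist2h3c1 and Hist2h3c2-ps were the 3 members higher in PRL_Sh in paw. Hist2h2be, an H2B gene, had 14.2, 16 and 17.7 CPM in paw PRL_Sh against 9.30, 11.4 and 9.99 CPM in paw PRL (log2 change 0.63 ± 0.16 SE, adjusted p = 0.0131, edgeR). Hist2h3c1, an H3 gene, had 6.76, 8.26 and 7.01 CPM in paw PRL_Sh against 4.2, 3.79 and 4.27 CPM in paw PRL (log2 change 0.83 ± 0.18 SE, adjusted p = 0.00563, edgeR). In both, the lowest PRL_Sh library was above the highest PRL library. In DRG Hist2h3c1 had 5.80, 4.92 and 4.37 CPM in PRL_Sh against 6.82, 7.59 and 8.23 CPM in PRL and was lower (log2 change -0.81 ± 0.16 SE, adjusted p = 0.00245, edgeR). Hist2h2be had 9.28, 9.15 and 8.03 CPM in DRG PRL_Sh against 10.7, 11.6 and 7.16 CPM in DRG PRL, which overlapped. Hist2h3c2-ps rested on 32, 30 and 31 reads in paw PRL_Sh and on 13 reads in the paw PRL libraries together (log2 change 1.70 ± 0.49 SE, adjusted p = 0.0196, edgeR). Only 36.5% of its 50-base windows were unique to its locus, so its reads may be shared with a copy. Its call was lost without paw PRL library 1 or 3 or PRL_Sh library 1.

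Hist1h4i, an H4 gene, was the one H4 member near its PRL level, with 1.68, 2.48 and 2.35 CPM in paw PRL_Sh against 1.79, 1.90 and 1.26 CPM in paw PRL. Its DRG level was low in both groups, at 0.572, 0.501 and 0.490 CPM in PRL_Sh against 0.930, 1.34 and 0.855 CPM in PRL (log2 change -1.23 ± 0.31 SE, adjusted p = 0.00999, edgeR). Hist2h4 holds the same 16-base stem-loop as Hist1h4i and had 3 reads in all paw PRL_Sh libraries against 1667 in paw PRL, and 5 in DRG PRL_Sh against 496 in DRG PRL. Hist3h2a and Hist1h3b share all 26 bases printed above, and their PRL_Sh reads in paw numbered 1517 and 1.

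Hist3h2ba, an H2B gene beside Hist3h2a, had 6.05, 6.01 and 4.64 CPM in DRG PRL_Sh against 4.24, 4.64 and 2.99 CPM in DRG PRL (log2 change 0.25 ± 0.21 SE, adjusted p = 0.322, edgeR). In paw it was low in both groups, at 0.172, 0.367 and 0.905 CPM in PRL_Sh against 0.805, 0.698 and 1.26 CPM in PRL. The pooled paw ratio of 0.518 (95% interval 0.303 to 0.887, counting error only) came from 32 reads in PRL_Sh, 20 of them in library 3, against 29 in PRL. In an alternative chosen after seeing the data it was 0.29 without PRL_Sh library 3, 0.485 without PRL library 1 and 0.466 without PRL library 2, and 7 members in paw were then above 0.5. Hist1h2be had 2.50, 1.56 and 3.98 CPM in paw PRL_Sh against 11.5, 13.6 and 17.6 CPM in paw PRL, and 5.80, 5.97 and 6.26 CPM in DRG PRL_Sh against 9.71, 11.4 and 8.55 CPM in DRG PRL. Its annotated exons overlap those of Hist1h1e on the same strand, and those of Hist3h2a overlap Trim17, so reads of these genes could be split or set aside in counting.

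What the 9 members read in both PRL_Sh groups share in the annotation was compared as counts, with no test. All 9 have an annotated transcript over 600 bases (727 to 2620, median 1825), against 17 of the 48 members that were read in some library but fell short of 10 reads in both PRL_Sh groups (median 498 bases). A poly(A) signal, AATAAA or ATTAAA on the sense strand in the last 40 bases of a transcript, was annotated in 6 of the 9 and in 7 of the 48, against 48.7% of protein-coding transcripts of other genes. The stem-loop itself was found in annotated transcripts of 7 of the 9 and 30 of the 48, and could be missed where an annotated transcript ends early. In all 7 of the 9 with a stem-loop the transcript ran on for over 100 bases past it, as it did in 13 of the 30 with one among the 48. A median of 91.5% of 50-base windows were unique to their locus in the 9 (36.5% to 100%), against 50.6% in the 48 (6.1% to 100%), and the part of this in the read counts was not tested. The 4 members that reached 10 reads in DRG or paw only are in neither set. Of these 4, 3 have a transcript over 600 bases, 2 a poly(A) signal and 4 a stem-loop. The 9 were set by reads and not by their PRL_Sh over PRL ratio, and they include Hist1h1e. Length and the signal were not limited to the 9. Hist2h4 and Hist4h4 have transcripts of 1630 and 2863 bases with a poly(A) signal, and Hist4h4 had 33 reads in paw PRL_Sh against 846 in paw PRL and 3 in DRG PRL_Sh against 222 in DRG PRL. A reading of these counts is limited by the annotation, since a transcript end that GENCODE M21 lacks, or that lies outside the authors' gene models, could not be seen.

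**Figure D3:**
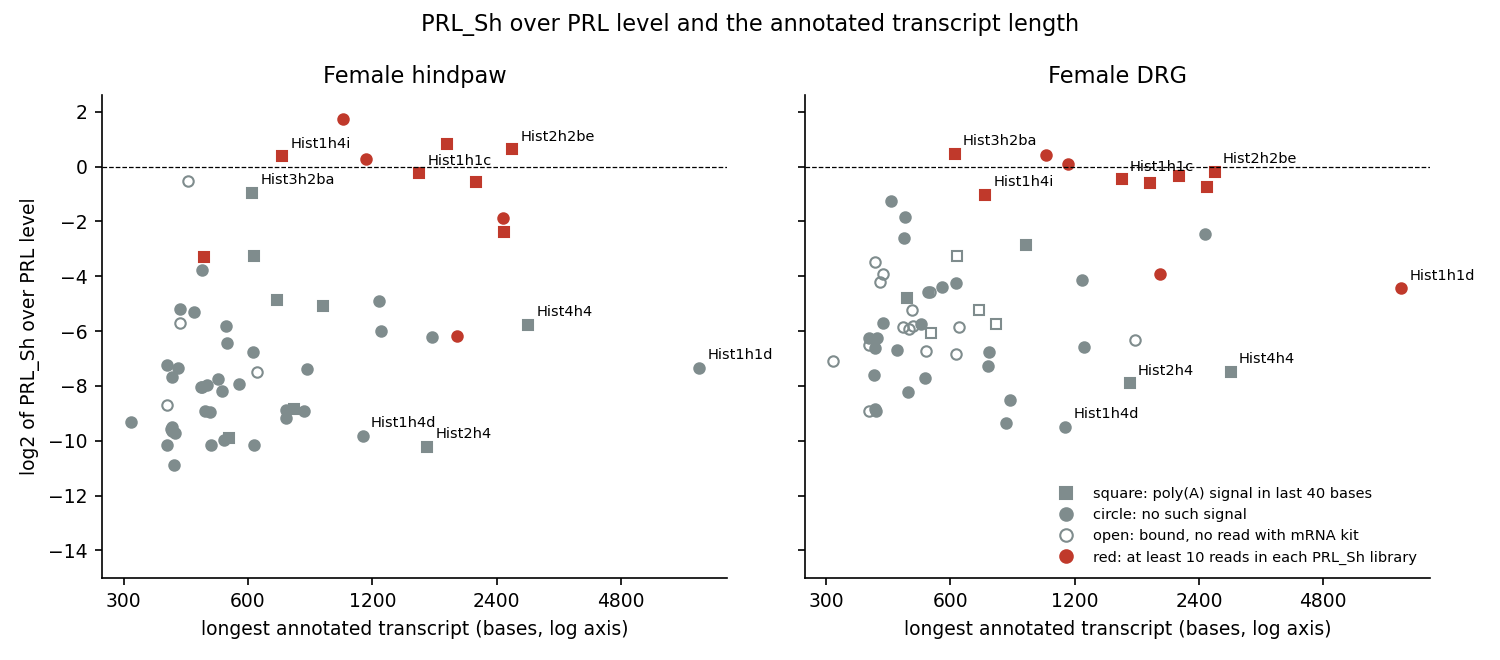
Log2 of the PRL_Sh over PRL level (vertical, from pooled CPM) against the longest annotated transcript in bases (horizontal, log axis) for each member read in PRL, in female hindpaw (left) and female DRG (right). Squares carry a poly(A) signal in the last 40 bases, open symbols are bounds for members with no PRL_Sh read, and red marks at least 10 reads in each PRL_Sh library. The 8 members in each tissue with a measured ratio above 0.5 all have transcripts over 600 bases, while Hist2h4, Hist4h4 and Hist1h4d are long and far below 0.

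Other RNAs known to lack a poly(A) tail, among them Rmrp, Rpph1 and small Cajal body RNAs, summed to 8.30 CPM in PRL_Sh against 5683.1 CPM in PRL in paw, and to 1.29 CPM in PRL_Sh against 2950.0 CPM in PRL in DRG. All 8 tested in paw and all 7 tested in DRG were lower in PRL_Sh. Replacement histones are known mainly for polyadenylated mRNAs made outside S phase. Whether this holds for every listed gene, H2afx and Cenpa among them, was not tested. Of all genes tested 58.5% passed between PRL_Sh and PRL in paw (29.4% higher, 29% lower) and 61.6% in DRG (29.3% higher, 32.3% lower). Of 11 replacement histone genes tested, 2 were higher and 1 lower in paw PRL_Sh, and 2 were higher and 3 lower in DRG PRL_Sh. Higher in paw were the H2A variant genes H2afv (0.94 ± 0.12 SE, log2) and H2afj (0.96 ± 0.18), and lower was H2afx (-0.68 ± 0.19). Lower in DRG were H3f3a, which also encodes H3.3 (-1.59 ± 0.19 SE, log2), the centromeric histone gene Cenpa (-1.25 ± 0.33) and H2afx (-0.40 ± 0.12), and higher were H2afy2 (0.31) and H1f0 (0.24). H3f3b, encoding the replacement histone H3.3, averaged 365.5 ± 62.5 CPM in paw PRL_Sh and 293.2 ± 66.3 CPM in paw PRL (SD, n = 3 each). Of 23 genes of S phase and DNA replication, 5 were higher and 6 lower in paw PRL_Sh, and 3 were higher and 8 lower in DRG PRL_Sh. Calls were thus no more common in the replacement histone and S-phase lists than among all genes. Of 9 macrophage genes all were lower in paw PRL_Sh and 6 in DRG PRL_Sh, while skeletal muscle genes were higher in 6 of 11 in paw PRL_Sh. Sensory neuron genes were higher in 6 of 8 in DRG PRL_Sh (summed 8200.0 to 8907.2 CPM in PRL_Sh against 4621.9 to 5486.3 CPM in PRL), and Schwann and satellite glia genes in all 5 tested in paw PRL_Sh (770.2 to 864.3 CPM in PRL_Sh against 358.4 to 470.9 CPM in PRL). Erythroid genes were lower in 4 of 5 in DRG PRL_Sh (36.7 to 81.0 CPM in PRL_Sh against 49.4 to 142.9 CPM in PRL). The part of these cell types in the histone differences was not tested.

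Whether PRL_Sh differed from PRL by a different amount in paw and in DRG was tested as an interaction over the 12 female libraries. Of 56 members tested, 6 had a higher log2 change in paw and 5 a lower one, where 38.6% of all genes passed (25.9% higher, 12.7% lower) and the median over all genes was 0.19. Hist2h3c1 differed by 1.71 ± 0.23 (SE), Hist2h2be by 1.08 ± 0.25 and Hist1h4i by 1.67 ± 0.40 towards paw. Hist1h1d differed by -2.64 ± 0.45 (SE), Hist1h1e by -2.0 ± 0.35 and Hist1h2be by -1.41 ± 0.39, all lower in paw. Of these, Hist1h1d and Hist1h1e had overlapping PRL_Sh levels in the 2 tissues and PRL levels that did not overlap. When libraries were scaled by gene reads only, the all-gene median was -0.09, all genes split into 2413 higher and 3394 lower rather than 4173 higher and 2050 lower, and the members into 4 higher and 7 lower. With RLE scaling the all-gene split was 2708 higher and 3031 lower and the members' 4 and 6.

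Paw was also compared with DRG in the Veh libraries. The reads of a member do not tell its transcripts without a poly(A) tail from its polyadenylated ones. In rRNA-depleted Veh libraries the members summed to 3.25-fold more in female paw than in female DRG and 3.84-fold more in male paw than in male DRG. Averaged over the sexes, 49 of the 55 members tested were higher in paw and 4 lower (edgeR's quasi-likelihood test, adjusted p under 0.05). Of all genes 85.8% passed, 43.1% higher and 42.7% lower, so a call by itself is near the background and the direction is what sets the members apart in this count. Their median log2 change was 2.41 beside 0.01 over all genes. Of the classes, H1 genes were higher in 5 of 5, H2A in 12 of 13, H2B in 12 of 14, H3 in 10 of 12 and H4 in 10 of 11. In bulk tissue fewer cells of a type and less RNA per cell cannot be told apart.

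Hist1h1b, the linker histone gene known from dividing cells, had 58.9, 63.5 and 59.2 CPM in female paw Veh against 11.8, 8.12 and 7.23 CPM in female DRG Veh. In males it had 65.1, 66.3 and 65.7 CPM in paw Veh against 2.25, 4.56 and 7.78 CPM in DRG Veh, so the tissues did not overlap in either sex (log2 change 3.31 ± 0.19 SE, adjusted p = 2.5e-09, edgeR). Hist1h1e had 137.0, 148.2 and 128.7 CPM in female paw Veh against 27.2, 26.3 and 26.6 CPM in female DRG Veh (log2 change over both sexes 2.52 ± 0.07 SE, adjusted p = 1.39e-12, edgeR). Hist2h2bb had 80.2, 95.1 and 83.3 CPM in female paw Veh against 14.3, 14.9 and 13.5 CPM in female DRG Veh (log2 change 2.61 ± 0.08 SE). Hist1h4a, an H4 gene, had 16.6, 18.1 and 14.9 CPM in female paw Veh against 1.94, 1.64 and 2.05 CPM in female DRG Veh (log2 change 3.52 ± 0.15 SE). Smaller but precise changes were those of Hist1h4d (1.71 ± 0.07 SE), Hist1h1c (1.67 ± 0.06) and Hist1h4c (1.44 ± 0.08), and Hist1h4b, Hist1h3f, Hist1h2bl, Hist1h1d and Hist1h3g were higher by 2.25 to 3.35 on the log2 scale.

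Of the 6 members that were not higher in paw, 5 were among the 9 still read in both PRL_Sh groups, and the other was Hist3h2ba. Hist3h2ba was the lowest in paw relative to DRG, with 0.456, 0.526 and 0.375 CPM in female paw Veh against 3.11, 3.53 and 4.01 CPM in female DRG Veh. Males showed the same separation, at 0.297, 0.583 and 0.241 CPM in paw Veh against 4.2, 2.23 and 3.73 CPM in DRG Veh (log2 change over both sexes -3.09 ± 0.26 SE, adjusted p = 1.16e-07, edgeR). Hist3h2a (-0.29 ± 0.06 SE), Hist2h3c1 (-0.34 ± 0.13) and Hist2h3c2-ps (-0.92 ± 0.32) were also lower in paw. Hist2h2be (-0.01 ± 0.12) and Hist1h4i (-0.24 ± 0.25) were the 2 that did not pass. Of the 9 members still read in both PRL_Sh groups, 4 were higher in paw (Hist1h1c, Hist1h1e, Hist1h2bc and Hist1h2be), 3 lower and 2 not called. The call for Hist2h3c1 was lost in 8 of 18 alternatives, among them DESeq2 and the omission of any of 7 single libraries.

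**Figure D4:**
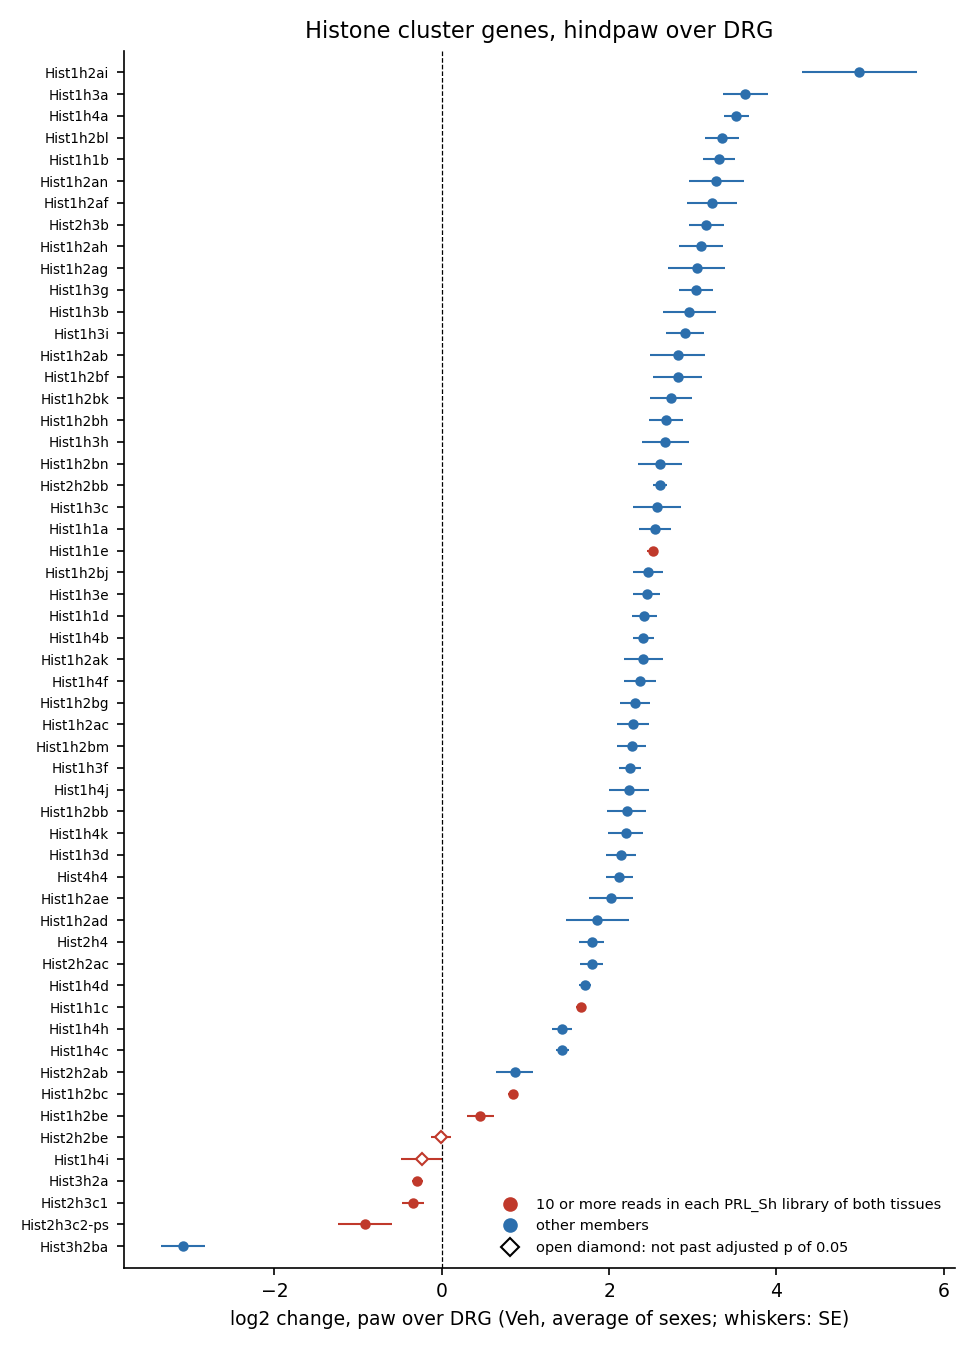
Log2 change of each tested histone cluster gene in hindpaw over DRG, in Veh libraries averaged over the sexes (horizontal; points are edgeR estimates, whiskers SE), with genes ordered by the change (vertical). Red marks members with at least 10 reads in each PRL_Sh library of both tissues, and open diamonds those not past the threshold. Of the red points Hist1h1e (2.52) and Hist1h1c (1.67) lie among the other members, the rest lie at 0.85 or below, the lowest being Hist2h3c2-ps at -0.92. Hist3h2ba, not red, is lowest of all at -3.09.

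Genes of S phase and DNA replication were also higher in paw Veh, in 21 of 23 (median log2 change 1.99), and histone chaperones, which hand histones to DNA, in 11 of 13. Of all genes 43.1% were higher there and 42.7% lower. Genes that process or transcribe histone mRNA were higher in 11 and lower in 7 of 20. Markers of bone marrow and granulocytes were lower in paw Veh in 12 of 12 tested, and erythroid markers in 4 of 4. The 13 marrow genes summed to 29.8 to 48.6 CPM in female paw Veh against 200.7 to 237.7 CPM in female DRG Veh, and 12.5 to 48.4 CPM in male paw Veh against 87.3 to 200.3 CPM in male DRG Veh, and the part of any cell type in the tissue difference was not tested.

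The tissue comparison in the PRL_Sh libraries could be made for 14 members, of which 7 were higher in paw and 2 lower, where 80.2% of all genes passed (39.9% higher, 40.2% lower). Hist1h1c was 1.72 ± 0.08 (SE, log2) higher in paw PRL_Sh than in DRG PRL_Sh, Hist1h2bc 0.97 ± 0.14, Hist2h2be 0.86 ± 0.13 and Hist1h4i 2.05 ± 0.27. Hist1h2ac (2.61 ± 0.30 SE), Hist1h4h (2.87 ± 0.48) and Hist2h3c1 (0.55 ± 0.17) were higher too, and Hist3h2ba (-3.52 ± 0.46) and Hist1h2be (-1.16 ± 0.31) lower. Hist1h1e, 2.52 higher in paw among Veh libraries, differed by 0.37 ± 0.32 (SE) here and did not pass (adjusted p = 0.304, edgeR). The PRL_Sh sum was 2.17-fold higher in paw than in DRG, against 3.34-fold between the female PRL groups of the same tissues. Without a filter on low counts 18 members passed in place of 9.

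Prolactin against vehicle was compared in each sex and tissue, over 12 rRNA-depleted libraries per tissue. In female paw 9 of 57 members tested rose with PRL and none fell, where 7.55% of all genes passed (6.54% higher, 1.01% lower). In male paw 2 rose and 3 fell of 57, where 22.4% of all genes passed (12.3% higher, 10.1% lower). The members' median log2 change was 0.40 in female paw and 0.09 in male paw, beside -0.01 in female and 0.02 in male paw over all genes. In female paw 48 of the 57 had a positive estimate and in male paw 32.

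The female paw increases included 3 of the 6 linker histone genes. Hist1h1d had 96.7, 92.0 and 107.8 CPM in female paw PRL against 55.7, 64.3 and 54.8 CPM in female paw Veh (log2 change 0.76 ± 0.11 SE, adjusted p = 0.00152, edgeR). Hist1h1b had 94.3, 91.0 and 122.0 CPM in PRL against 58.9, 63.5 and 59.2 CPM in Veh (log2 change 0.76 ± 0.12 SE, adjusted p = 0.00238, edgeR). Hist1h1a had 49.1, 45.7 and 50.9 CPM in PRL against 29.2, 35.1 and 29.8 CPM in Veh (log2 change 0.63 ± 0.13 SE, adjusted p = 0.0103, edgeR). In these 3 linker histone genes, and in the H2A gene Hist1h2an at 11.3, 9.38 and 11.6 CPM in PRL against 6.39, 6.75 and 6.65 CPM in Veh, the groups did not overlap. Hist1h2bm (0.55 ± 0.12 SE), Hist1h2bj (0.73 ± 0.18), Hist1h2bl (0.65 ± 0.18), Hist1h3d (0.61 ± 0.16) and Hist3h2a (0.44 ± 0.10) also rose. No H4 gene passed in female paw. Fitting the 6 female paw libraries alone left 4 calls, and leaving out a library gave 3 to 13, with the fewest without Veh library 3 (3), and 5 without PRL library 1.

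In male paw Hist1h4i had 2.23, 1.32 and 2.07 CPM in PRL against 0.891, 0.437 and 0.962 CPM in Veh (log2 change 1.26 ± 0.34 SE, adjusted p = 0.0207, edgeR). Hist2h2be had 10.7, 11.1 and 12.1 CPM in PRL against 9.87, 6.26 and 7.14 CPM in Veh (log2 change 0.56 ± 0.17 SE, adjusted p = 0.0376, edgeR). Both belong to the members still read in PRL_Sh, and so do Hist1h1e and Hist1h2bc, which fell. The 3 that fell were Hist1h1e, with 74.2, 97.5 and 119.7 CPM in PRL against 163.3, 147.5 and 140.8 CPM in Veh (log2 change -0.61 ± 0.16 SE), Hist1h2bc, with 40.7, 39.5 and 45.0 CPM in PRL against 57.1, 54.0 and 56.9 CPM in Veh (-0.40 ± 0.09), and Hist1h3b (-0.57 ± 0.17). Hist1h1d, at 53.5, 71.3 and 76.5 CPM in male paw PRL against 69.0, 61.9 and 67.6 CPM in male paw Veh, overlapped. Leaving out a library gave 1 to 4 calls, with 1 without PRL library 1, 2 without PRL library 3 or Veh library 2 and 3 without Veh library 1. Without Veh library 2, the one that stood apart, Hist1h2bc (-0.42) and Hist1h1e (-0.62) passed, and Hist1h4i (1.05), Hist2h2be (0.45) and Hist1h3b (-0.46) did not.

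The difference between the sexes in the paw response was tested as an interaction, and no member passed (0 of 57, where 1 of 14721 genes or 0.00679% passed). Before adjustment 19 members (33.3%) were under 0.05, beside 13.1% of all genes, and by DESeq2 4 were higher in females. Hist1h2bc had the smallest p, with a female minus male difference of 0.66 ± 0.13 (SE, adjusted p = 0.205, edgeR), and Hist1h1e differed by 1.08 ± 0.23 (adjusted p = 0.205, edgeR). The 9 calls in female paw are therefore not shown to be particular to females.

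Averaged over the sexes, which uses the same libraries, 12 of 57 members rose in paw with PRL and none fell, where 24.9% of all genes passed (14.9% higher, 10% lower). They were Hist1h1b (0.45 ± 0.08 SE, log2), Hist1h1d (0.40 ± 0.08), Hist3h2a (0.33 ± 0.07), Hist1h4i (1.13 ± 0.24), Hist1h2bj, Hist1h1a, Hist1h2bm, Hist1h2bk, Hist1h4b, Hist3h2bb-ps, Hist2h2be and Hist1h4f. The share called among the members, 21.1% of those tested, is near that of all genes. Without male Veh library 2 the count was 10, Hist2h2be and Hist1h4f no longer passing. Hist1h4i had 1.79, 1.90 and 1.26 CPM in female paw PRL against 0.730, 0.788 and 0.936 CPM in female paw Veh, so its PRL libraries were above its Veh libraries in both sexes.

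Of 23 genes of S phase and DNA replication, 7 rose with PRL in female paw, among them E2f1 (0.79 ± 0.14 SE, log2), a transcription factor of S-phase entry, and the replication helicase subunits Mcm2 (0.68 ± 0.13) and Mcm5 (0.65 ± 0.13). In male paw none rose and 1, Mcm4, fell (-0.34 ± 0.10), and the female minus male difference passed for 0 of the 23. Of all genes 6.54% rose and 1.01% fell in female paw, and 12.3% rose and 10.1% fell in male paw. The list summed to 1061.7 to 1245.7 CPM in female paw PRL against 754.1 to 927.8 CPM in female paw Veh, and to 742.4 to 945.1 CPM in male paw PRL against 859.3 to 952.0 CPM in male paw Veh. Macrophage genes summed to 1093.3 to 1739.5 CPM in female paw PRL against 466.7 to 644.6 CPM in female paw Veh, and to 1236.7 to 1489.8 CPM in male paw PRL against 584.6 to 944.9 CPM in male paw Veh. Of the 9 macrophage genes 8 rose in female paw, and 7 rose and 1 fell in male paw. Skeletal muscle genes ranged from 2152.0 to 48775.3 CPM in female paw PRL and from 14556.0 to 54677.3 CPM in female paw Veh, and from 52581.8 to 113989.8 CPM in male paw PRL and from 14502.3 to 71595.1 CPM in male paw Veh. Keratinocyte and hair follicle genes summed to 24611.9 to 33636.3 CPM in male paw PRL against 40446.4 to 48754.1 CPM in male paw Veh, with 5 of 9 lower, and to 27320.3 to 37253.1 CPM in female paw PRL against 28706.3 to 38656.9 CPM in female paw Veh, with none passing. Bone marrow and granulocyte genes summed to 87.3 to 480.8 CPM in male paw PRL against 12.5 to 48.4 CPM in male paw Veh, with 4 of 7 tested higher, and to 46.3 to 87.3 CPM in female paw PRL against 29.8 to 48.6 CPM in female paw Veh, with none of 7 passing. The part of these cell types in the histone differences was not tested.

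In DRG no member passed in either sex. In females 0 of 52 tested passed (0.653% of all genes, 0.292% higher and 0.36% lower). There 8 members (15.4%) were under 0.05 before adjustment, beside 12.0% of all genes, and DESeq2 found 0. In males 0 of 52 passed (0.517% of all genes, 0.286% higher and 0.231% lower). There 10 members (19.2%) were under 0.05 before adjustment, beside 14.9% of all genes, and DESeq2 found 2, both higher. Estimates were positive for 50 of 52 members in females and 46 of 52 in males, with median log2 changes of 0.47 in females and 0.50 in males beside 0.00 over all genes in each. The 3 smallest p-values in female DRG were those of Hist1h2bc (0.29 ± 0.08 SE, log2, adjusted p = 0.181, edgeR), Hist1h1c (0.26 ± 0.07) and Hist2h2bb (0.49 ± 0.15), and in male DRG those of Hist1h1c (0.33 ± 0.07, adjusted p = 0.0746, edgeR), Hist1h1e (0.62 ± 0.14) and Hist1h3e (0.82 ± 0.25).

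Averaged over the sexes, 3 of 52 members rose in DRG with PRL and none fell, where 3.6% of all genes passed (2.14% higher, 1.47% lower) and 22 members (42.3%) had an unadjusted p under 0.05, beside 21.5% of all genes. Hist1h1c had 82.3, 87.6 and 82.2 CPM in female DRG PRL against 77.7, 71.9 and 64.6 CPM in female DRG Veh, and 79.5, 78.1 and 91.0 CPM in male DRG PRL against 62.7, 65.4 and 69.3 CPM in male DRG Veh. Every PRL library was above every Veh library of its sex (log2 change 0.29 ± 0.05 SE, adjusted p = 0.00949, edgeR). Hist2h2bb had 18.2, 23.7 and 17.1 CPM in female DRG PRL against 14.3, 14.9 and 13.5 CPM in female DRG Veh, and 16.8, 13.7 and 19.8 CPM in male DRG PRL against 9.90, 13.1 and 12.7 CPM in male DRG Veh (log2 change 0.50 ± 0.11 SE, adjusted p = 0.0287, edgeR). Hist1h1e had 30.6, 34.7 and 26.4 CPM in female DRG PRL against 27.2, 26.3 and 26.6 CPM in female DRG Veh, and 46.4, 33.2 and 34.7 CPM in male DRG PRL against 20.6, 25.3 and 28.3 CPM in male DRG Veh (log2 change 0.42 ± 0.10 SE, adjusted p = 0.04, edgeR). The count was 1 without female PRL library 1 or 2, female Veh library 2 or 3, male PRL library 1 or 3 or male Veh library 1, 6 without female PRL library 3 and 5 without female Veh library 1. No member differed between the sexes in the DRG response (0 of 52, with 0% of all genes passing and 1 member, or 1.92%, at an unadjusted p under 0.05, beside 3.65% of all genes, and none by DESeq2).

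**Figure D5:**
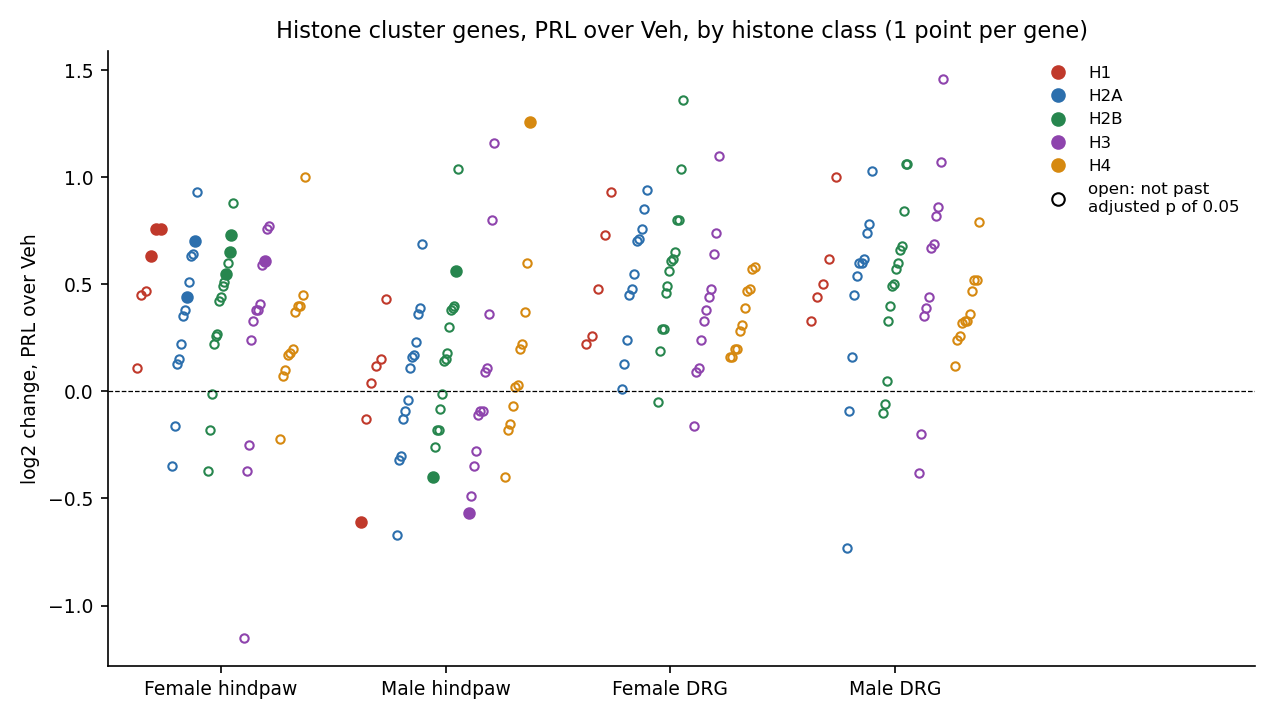
Log2 change of each tested histone cluster gene with PRL over Veh (vertical), by sex and tissue (horizontal), with histone classes H1, H2A, H2B, H3 and H4 side by side and 1 point per gene. The horizontal dashed line is at 0, and filled points passed an adjusted p of 0.05 within that comparison. Most points are above 0 in both DRG comparisons with none filled, 9 are filled above 0 in female hindpaw, and in male hindpaw 2 are filled above and 3 below 0.

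Marrow markers were spread widely over the DRG PRL libraries, and their relation to the histone levels was not tested. The 13 bone marrow and granulocyte genes summed to 197.2 to 568.1 CPM in female DRG PRL against 200.7 to 237.7 CPM in female DRG Veh, and to 164.6 to 1056.8 CPM in male DRG PRL against 87.3 to 200.3 CPM in male DRG Veh. Mpo, the myeloperoxidase of granulocyte precursors, was the one of the 13 that rose over both sexes (1.37 ± 0.30 SE, log2, adjusted p = 0.0281, edgeR). Of the S-phase genes 1 of 23, Mcm2, rose over both sexes (0.45 ± 0.11 SE), where 2.14% of all genes rose. Erythroid genes summed to 49.4 to 142.9 CPM in female DRG PRL against 52.1 to 76.8 CPM in female DRG Veh, and to 8.79 to 117.3 CPM in male DRG PRL against 15.1 to 57.6 CPM in male DRG Veh, with the 4 globin genes of the list at 0 in all 4 groups. Skeletal muscle genes summed to 568.2 to 23926.1 CPM in female DRG PRL against 283.5 to 1362.4 CPM in female DRG Veh. In males they summed to 2809.8 to 11015.8 CPM in DRG PRL against 241.4 to 6371.2 CPM in DRG Veh, and the groups overlapped in both sexes. Schwann and satellite glia genes summed to 21206.4 to 27662.6 CPM in female DRG PRL against 16085.3 to 18180.4 CPM in female DRG Veh, and to 22491.4 to 25395.9 CPM in male DRG PRL against 13634.7 to 19322.9 CPM in male DRG Veh. The glia sums did not overlap between PRL and Veh in either sex. Of the 7 glia genes 2 passed in females and 1 in males, all higher, where 0.653% of all genes passed in females and 0.517% in males. The part of these cell types in the histone values was not tested. Of the replacement histones, H1f0, a linker histone gene of resting cells, rose over both sexes (0.26 ± 0.04 SE, log2, adjusted p = 0.00651, edgeR).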

How the data were processed

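Gene-level read counts were deposited by the authors, one file per library, as raw HTSeq counts that were not normalised, with 22609 genes and 5 summary lines. Per the submitters' processing notes, the tools were bcl2fastq, TopHat2 and HTSeq and the build was mm9. No version, annotation or strand setting was stated there. The 5 summary lines were left out of library sizes and tests. Members were all symbols of the stated form. Members, lists and tests were chosen with earlier results of these data known.

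Tests used the quasi-likelihood F test of edgeR 4.0.16 under R 4.3.3 (TMM scaling, filterByExpr with a minimum count of 10, Benjamini-Hochberg adjustment over all genes tested, threshold 0.05). Prolactin comparisons were fitted over the 12 rRNA-depleted libraries of a tissue, and the others over the libraries of the groups compared. DESeq2 1.42.0, other scalings, other filters, a replicate block and the omission of each library were alternatives. The procedure was tested on simulated data in which 200 genes changed 2-fold or 4-fold. That simulation does not cover changes as large or as widespread as those between PRL_Sh and PRL. Genes were named by rank: the 10 highest members of each tissue, up to 12 calls a direction by p, up to 4 per other list, members still read in PRL_Sh, and, where none passed, the 3 smallest p-values. Depth ranged from 6866545 to 26515208 gene reads a library, and intervals and limits cover counting error only. Annotation and sequences come from GENCODE M21 (GRCm38). Whether replicate numbers pair libraries is not labelled, and the main fits did not pair them.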

Additional observations from a re-analysis of the deposited data

Results flagged for a closer look

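The change between PRL_Sh and PRL differed between hindpaw and DRG for 11 members, by the interaction term of edgeR's quasi-likelihood fit over 12 female libraries with Benjamini-Hochberg adjustment. The paw minus DRG difference of log2 changes was positive for Hist2h3c1 (1.71), Hist1h4h (1.77), Hist1h4i (1.67), Hist2h3c2-ps (1.56), Hist2h2be (1.08) and Hist1h1c (0.48). It was negative for Hist1h2bj (-5.02), Hist1h1d (-2.64), Hist1h2bg (-2.25), Hist1h1e (-2.0) and Hist1h2be (-1.41). Hist1h2bj rested on 4 reads over the paw PRL_Sh libraries and 37 over the DRG PRL_Sh libraries, and Hist1h2bg on 20 and 37. These 11 are 19.6% of the 56 members tested, beside 38.6% of all genes. With libraries scaled by gene reads only the members split into 4 higher and 7 lower rather than 6 higher and 5 lower, and with RLE scaling into 4 and 6. Of these 11 calls 7 held under every alternative run.

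Hist1h2bc lay on opposite sides of Veh with prolactin in the paws of females and males. It had 67.6, 55.9 and 59.4 CPM in female PRL against 48.9, 49.4 and 53.4 CPM in female Veh, which did not pass (log2 change 0.27 ± 0.09 SE, adjusted p = 0.108, edgeR). It had 40.7, 39.5 and 45.0 CPM in male PRL against 57.1, 54.0 and 56.9 CPM in male Veh, which passed (-0.40 ± 0.09 SE, adjusted p = 0.00955, edgeR). The female minus male difference was 0.66 ± 0.13 (SE, log2), which did not pass in edgeR (adjusted p = 0.205) and passed in DESeq2 (adjusted p = 0.00568).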

How the results depend on the processing

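Counts of members called kept within 1.5 times the reported count, with these exceptions. DESeq2 called 2 members in male DRG in place of 0 and 4 in the paw female minus male difference in place of 0. A fit of the female paw groups alone called 4 in place of 9. Without a filter, paw against DRG in PRL_Sh called 18 in place of 9. A minimum of 1 read in each library kept 29 members in paw PRL_Sh and 23 in DRG PRL_Sh, and a minimum of 50 kept 6 and 7 members in the same order. TMM scaling over all 30 libraries put the female DRG PRL_Sh sum at 138.3 CPM. Leaving out single libraries gave 3 to 13 calls in female paw, 1 to 4 in male paw and 1 to 6 for DRG over both sexes, and between 43 and 52 for PRL_Sh against PRL in DRG. Of the prolactin calls, 3 of 9 in female paw and 1 of 5 in male paw held under every alternative. Over both sexes 7 of 12 in paw and 1 of 3 in DRG held. Differences that changed sign had not passed the test. For Hist2h3c2-ps, paw over DRG in PRL_Sh ranged from -0.27 to 0.10 and PRL_Sh over PRL in DRG from -0.01 to 0.37 on leaving out single libraries. Hist1h2bc in DRG turned to 0.08 with scaling by gene reads only. Hist3h2a, paw minus DRG, turned to -0.18 with DESeq2, -0.24 with gene reads only, -0.30 without a filter and -0.18 with RLE scaling, and ranged from -0.23 to 0.14 on leaving out libraries. The cause was not tested. Deviations from group means in same-numbered libraries correlated at -0.564 to 0.466 between paw groups and -0.451 to 0.438 between DRG groups. Between paw and DRG PRL_Sh libraries the range was -0.116 to 0.026. The labels do not say whether libraries are paired, and these values cannot decide it. With a replicate block 7 members were called in female paw, 4 in male paw and 10 in paw over both sexes. The block gave 2 in DRG over both sexes, 51 for PRL_Sh against PRL in paw and 10 for paw minus DRG. All other block counts equalled the reported ones.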
